A study of Mus musculus with 6 samples.

Results

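These are the 2522 genomic intervals that both probe pools of a Bloodlinc ChIRP-seq experiment captured and that the list of the pulldown does not hold. A member is a peak of the even-probe list that overlaps a peak of the odd-probe list by 1 bp or more and overlaps no peak of the pulldown list. The 2522 regions are 13.9% of the 18114 even peaks (exact 95% interval 13.4% to 14.4%) and 90.4% of the 2790 even peaks with an odd partner. The other 268 shared peaks also meet the pulldown and make up the consensus that the authors kept. The 2522 regions pair with 2523 odd peaks, which are 12.2% of the 20596 odd peaks, because 1 region meets 2 odd peaks. None of the 2523 odd partners meets a pulldown peak, so the set is nearly the same when it is drawn from the odd side.

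ChIRP-seq purifies crosslinked chromatin with biotinylated DNA oligonucleotides that tile a chosen RNA and reads out the DNA bound in the same complexes by sequencing. The probes are commonly numbered along the RNA and split into an even and an odd pool. Signal that depends on a stray match of a probe to DNA or to another RNA should then appear in 1 pool only, and sites found with both pools are the ones usually kept. Bloodlinc, also called alncRNA-EC7, is a long noncoding RNA made from a super-enhancer in red cell precursors, and the study's title places its action in trans. Super-enhancers are dense clusters of enhancers, and RNAs made from them can stay near their gene or act elsewhere.

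The chromatin came from MEL cells, a mouse erythroleukaemia line that matures towards red cells in dimethyl sulfoxide (DMSO). Every library is labelled as taken on day 5 of 2% DMSO. The libraries used for the members were 1 with the even probes, 1 with the odd probes and 1 Bloodlinc pulldown whose label names no pool. A control without probes (124 peaks), a control with RNase (141) and an input (270), whose peak names carry a day 0 tag, served as background. With 1 library per condition no replicate error exists, so no difference below carries a test, and intervals cover only the counting of peaks.

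Absence from the pulldown list is not absence of signal. Whether the pulldown list comes from a separate capture or from pooled even and odd reads is not stated in the labels. That list holds 517 peaks whose names are numbered up to 27800, and its lowest score is 633. The even list holds 18114 peaks numbered up to 124782, and the odd list 20596 numbered up to 120836. The scores are the authors' own, on a scale the sources used here do not give. They are therefore given as ranks (1 is the highest) or percentiles (100 is the highest) within a list. No read depth is known, and no mm9 genome or annotation was used, so no gene or sequence is given for any region.

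The regions were among the highest-scoring peaks of the even list, and their odd partners were middle to low in the odd list. Their even scores ran from 389 to 4266 with a median of 2403 (interquartile range 1862 to 2849), against a median of 991 for the 15281 even peaks without any partner. Their median even percentile was 90.01 (exact interval of the median 89.5 to 90.6). The odd partners had scores from 357 to 4761 with a median of 1027 (788 to 1427), against 1164 for the 17602 odd peaks without a partner. Their median odd percentile was 41.8 (39.8 to 43.5). The regions were chosen from calls in these same libraries, so these values describe the choice.

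In 2345 of the 2523 pairs (92.9%) the even percentile was above the odd percentile. Even scores above the 90th percentile occurred in 1272 pairs (50.4%), where 10.1% of all even peaks lie. Odd scores above the 90th percentile occurred in 54 pairs (2.14%), where 9.98% of all odd peaks lie. Above the 50th percentile lay 89.1% of pairs on the even side, against 50% of all even peaks, and 39.2% on the odd side, against 49.8% of all odd peaks. An even percentile above the odd percentile was not particular to the members. It was also found in 257 of the 268 pairs with a pulldown peak (95.9%).

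Divided at the 50th percentile of each list, the most common kind of pair was high in even and low in odd, with 1314 pairs (52.1%). A further 934 pairs (37.0%) were high in both lists and 221 (8.76%) low in both. The reverse order, low in even and high in odd, was found in 54 pairs (2.14%). Of the 54 pairs above the 90th percentile of the odd list, 36 also exceeded the 90th percentile of the even list. Of the 287 pairs at or below the 10th percentile of the odd list, 62 exceeded the 90th percentile of the even list. Over all 2523 pairs, 1272 exceeded it.

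**Figure D1:**
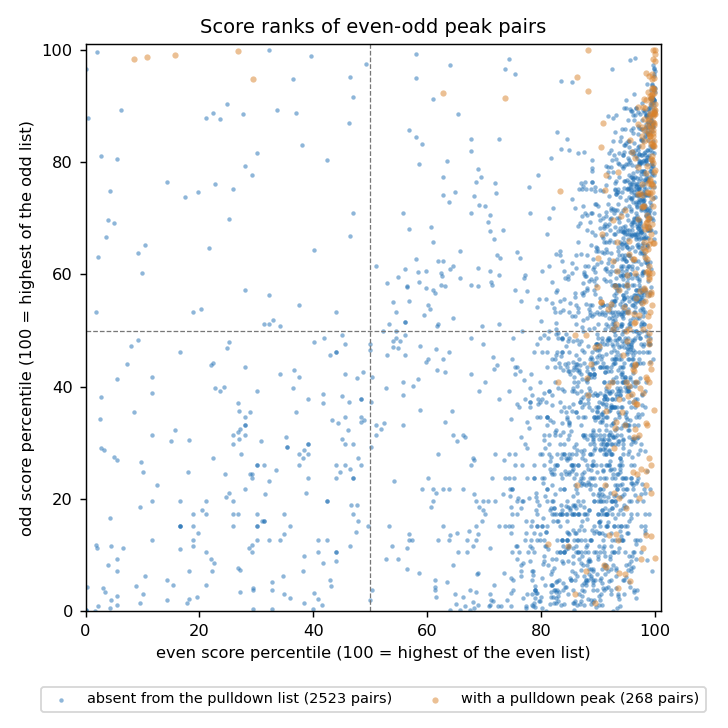
Each point is an even-odd pair, with its even score percentile across and its odd score percentile up, and dashed lines at 50. The 2523 pairs absent from the pulldown list (blue) crowd at high even percentiles, with a median of 90.01, and spread over the odd percentiles with a median of 41.8, while the 268 pairs with a pulldown peak (orange) sit at a median of 98.1 and 65.5.

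Members were concentrated in the upper part of the even list. Of the lowest 10% of even peaks by score, 2.66% were members (1.96% to 3.51%), and the share was still 3.67% (2.85% to 4.65%) in the 6th of 10 bins. It was 9.72% (8.40% to 11.2%) in the 8th bin, 34.8% (32.6% to 37.1%) in the 9th and 69.7% (67.6% to 71.8%) in the 10th. The odd list had the opposite trend. Its share of partners lay between 13.3% and 15.8% in the 6 lowest bins and was 8.05% (6.91% to 9.31%) in the 9th and 2.63% (1.98% to 3.41%) in the 10th. In the 10th odd bin 1770 of the 2056 peaks had neither an even nor a pulldown peak. The share was similar over all odd peaks, at 17602 of 20596.

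**Figure D2:**
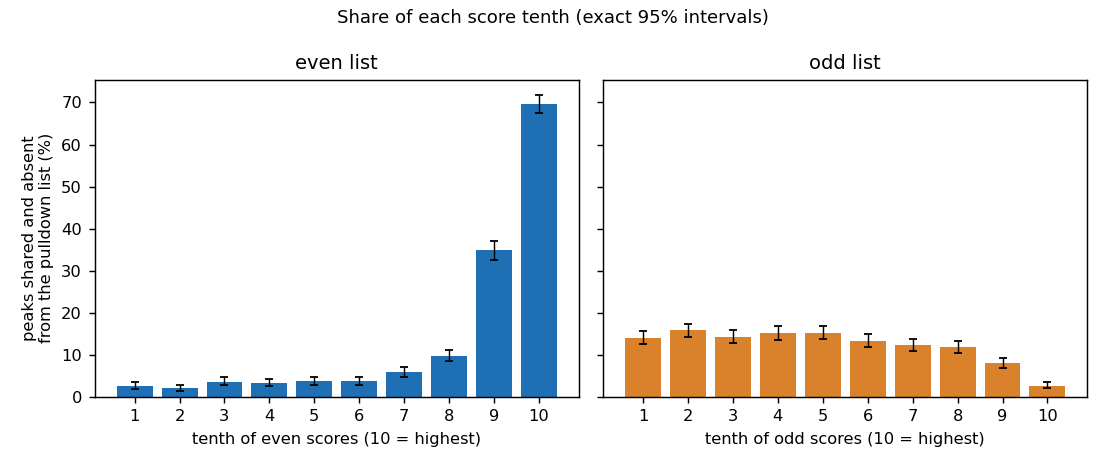
Bars give the percentage of peaks in each of 10 score bins of the even list (left) and the odd list (right) that are shared between pools and absent from the pulldown list, with exact 95% intervals. The even share climbs from 2.66% in the lowest bin to 69.7% in the highest, and the odd share falls from 14.0% to 2.63%.

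The very top of the even list was divided between these regions and the consensus. Of the 104 even peaks ranked 100 or better, ties included, 52 were members, 47 met both an odd and a pulldown peak, 2 met a pulldown peak alone and 3 had no partner. Of the 1016 even peaks ranked 1000 or better, 741 were members and 57 had no partner. Of the 1000 highest odd peaks, 19 were partners of members, and 808 had no partner. Another 160 of them met a pulldown peak alone, and 13 met both an even and a pulldown peak. Among all 20596 odd peaks, 2523 were partners of members, 17602 had no partner and 204 met a pulldown peak alone. No member pair ranked 500 or better in both lists, 8 member pairs ranked 1000 or better in both and 272 ranked 5000 or better in both.

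The highest even score of the set, 4266, belonged to a peak on chromosome 1 at 35509923 to 35510669, 6th of the even list. Its odd partner at 35509929 to 35510515 lay wholly inside it, scored 2887 and ranked 1409th. The next, on chromosome 17 at 56733771 to 56734374, scored 4216 in the even list (rank 9) and 1537 in the odd list (rank 6699). The third, on chromosome 16 at 56838568 to 56839195, ranked 10th in the even list and 2259th in the odd list. These even peaks stood among the first 10 of 18114, and none had a pulldown peak nearer than 159 kb.

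The other even peaks among the 10 highest were on chromosomes 1, 4, 5, 7, 15 and X. The one on chromosome 1 at 93960905 to 93961517 (even score 4171, rank 11) had an odd partner of score 3256 (rank 779) and a pulldown peak 51.5 kb away. The one on chromosome 4 at 125796303 to 125796813 (even score 4168, rank 13) had an odd partner of rank 5418, and their midpoints were 1.5 bp apart. The one on chromosome 15 at 16110898 to 16111368 (4153, rank 16) and the one on chromosome X at 162787134 to 162787709 (4151, rank 17) had odd ranks of 1552 and 2026. On chromosome 5, the peak at 12317789 to 12318390 (4112, rank 21) had an odd rank of 875 and its nearest pulldown peak 11853.8 kb away. Equal even scores of 4052 (rank 25) were found on chromosome 1 at 130707870 to 130708440, with an odd rank of 4840, and on chromosome 7 at 13599690 to 13600261, with an odd rank of 716. In 7 of these 10 pairs the odd peak lay inside the even peak.

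The pairs with the highest odd scores looked different. The highest, on chromosome 15, had an odd peak at 9915413 to 9916049 of score 4761 (rank 7), around an even peak of score 861 and rank 12196. On chromosome 19, an odd peak of score 4108 (rank 87) at 30118879 to 30119494 enclosed an even peak of score 535 and rank 17742, near the bottom of its list. On chromosome 9, an odd peak of rank 155 at 43422453 to 43423096 overlapped an even peak of rank 7567, and their midpoints were 253 bp apart. On chromosome 5, an odd peak of rank 235 at 82720481 to 82721054 enclosed an even peak of rank 10940. In the last of these 5, on chromosome 4, both peaks were near the top of their lists. There the odd peak at 134645073 to 134646146 scored 3693 (rank 321) and the even peak at 134645134 to 134645845 scored 3011 (rank 632).

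By the poorer of its ranks in the even and odd lists, the best region lay on chromosome 5 at 96839299 to 96839779, ranked 64th in the even list and 560th in the odd list. Both peaks of that pair were 481 bp wide, their midpoints differed by 9 bp, and the nearest pulldown peak was 1470.54 kb away. The chromosome 4 region just described followed, and then a region on chromosome 13 at 37432413 to 37433021, ranked 29th in the even list and 683rd in the odd list. The regions at 13599690 on chromosome 7 and at 93960905 on chromosome 1 completed the first 5. All 5 ranked 779th or better in both lists. The region of median even score, on chromosome 10 at 106384781 to 106385267, scored 2403 in the even list (rank 1799) and 1676 in the odd list (rank 5699).

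Even and odd scores were positively related across the 2523 pairs, with Spearman's rho of 0.460 and Pearson's r of 0.379. Across the 268 pairs with a pulldown peak the values were 0.428 and 0.166. These describe positions within a single pair of libraries. In 5 equal bins of even score, the median odd percentile was 30.2 in the lowest bin (even scores 389 to 1652), 25.1 in the second and 35.4 in the third. It reached 49.0 in the fourth bin and 69.9 in the highest (2939 to 4266). From the second bin upward a higher even score went with a higher odd percentile, while the first and second bins stood in the opposite order.

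The peaks of a pair were nearly concentric. The median distance between their midpoints was 17.5 bp (exact interval 16.5 to 18), against median widths of 527 bp for the even peaks and 450 bp for the odd partners. In 2162 pairs (85.7%) the midpoints were within 50 bp, and in 75 (2.97%) they were more than 200 bp apart. There was no lean to either side, with the even midpoint at the higher coordinate in 1266 pairs, at the lower in 1233 and at the same base in 24. The median overlap was 435 bp, and in 1890 pairs (74.9%) the narrower peak was wholly covered. The rule asked for 1 bp only, and 15 pairs overlapped by less than 100 bp.

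The odd peak was usually nested in the even peak. It lay wholly inside a wider even peak in 1774 pairs (70.3%), the reverse held in 116 (4.60%), and 633 (25.1%) were staggered. The nested odd peaks had a median width of 431 bp inside even peaks of 537 bp, with median percentiles of 37.3 in the odd list and 91.2 in the even list. The even peaks inside an odd peak had a median width of 460.5 bp inside odd peaks of 520 bp, with median percentiles of 62.2 in the even list and 58.1 in the odd list. Within a list, score and width were related, with a rho of 0.568 across the members' even peaks and 0.606 across their odd partners.

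The 54 pairs with a low even and a high odd score were the least concentric. Their median midpoint distance was 147.5 bp (104.5 to 213), against 17 bp in the 1314 pairs of the opposite order, 16 bp in the 934 pairs high in both and 20 bp in the 221 low in both. The odd peak lay inside the even peak in 2 of the 54 pairs (3.70%), against 1111 of 1314 pairs (84.6%) of the opposite order, and 40 of the 54 were staggered. Their median overlap was 323 bp, and the narrower peak was covered to a median of 81.6%.

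**Figure D3:**
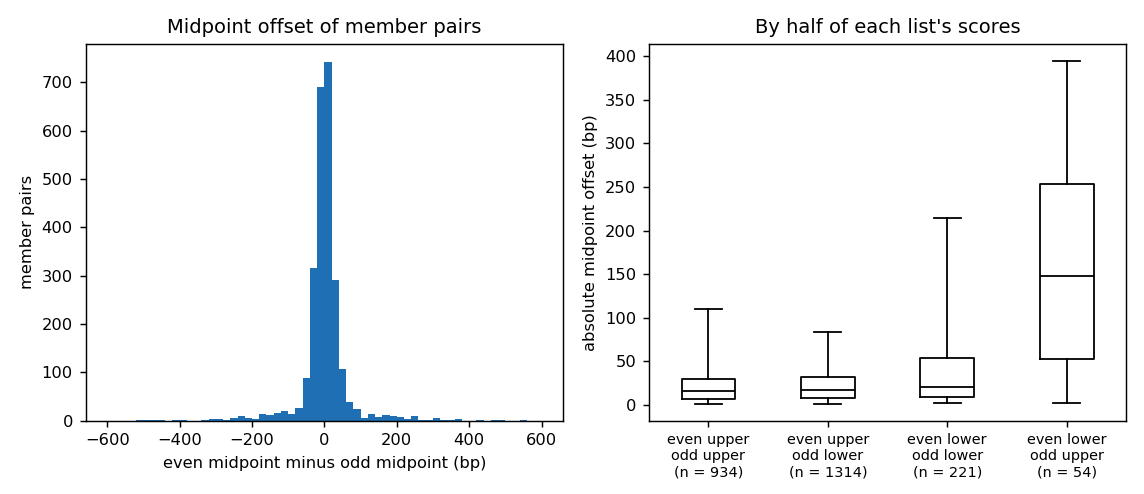
Left, the histogram in 20 bp bins of the even midpoint minus the odd midpoint for the 2523 pairs, centred near 0 with 85.7% within 50 bp. Right, boxes of the absolute distance (median, quartiles, whiskers at the 5th and 95th percentiles) by side of the 50th score percentile in each list, with a median of 147.5 bp for the 54 pairs low in even and high in odd and of 16 to 20 bp for the others.

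Within each of 10 bins of score, the members and their odd partners were wider by median than peaks without a partner. In 10 bins of even score, the median width of members was 396.5 bp in the lowest bin and 552 bp in the highest, and that of even peaks without a partner 383 and 530 bp. The medians were nearest in the 2nd even bin, at 393 and 391 bp. In the 9th even bin the medians were 520 and 502 bp. On the odd side the partners ran from 391 to 593.5 bp and the odd peaks without a partner from 377 to 580 bp, with 538 and 522 bp in the 9th bin. The order was the same in all 10 bins of each list. In the highest of 5 odd bins it was reversed, with 547 bp for the partners and 551 bp for odd peaks without one. Scores were not matched within a bin. Width enters the overlap that chose the members, so this is a description. The widest even peak, singled out after its width was seen, spanned 2987 bp on chromosome 19 at 37332778 to 37335764 (rank 136) around an odd peak of 2613 bp. The region with 2 odd partners, on chromosome 11 at 95890067 to 95891110, was 1044 bp wide, and its partners were 407 and 502 bp wide.

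**Figure D4:**
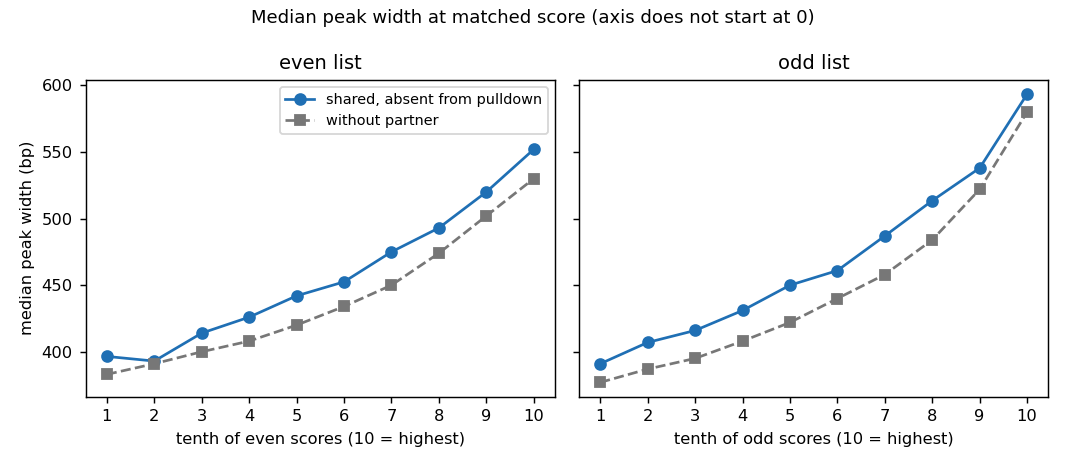
Median peak width in bp in 10 score bins of the even list (left) and the odd list (right), for shared peaks absent from the pulldown list (circles) and peaks without a partner (squares), on an axis that does not start at 0. The shared peaks are wider in every bin, 552 against 530 bp in the highest even bin and 593.5 against 580 bp in the highest odd bin.

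Pairs with a pulldown peak were higher in score and wider than the members, and equally concentric by median. The 268 pairs with a pulldown peak had a median midpoint distance of 17 bp, and the odd peak was inside the even peak in 189 of them (70.5%, 64.7% to 75.9%), beside 70.3% (68.5% to 72.1%) of the members. Their median widths were 559 bp for the even and 490.5 bp for the odd peaks, against 527 and 450 bp, and their median overlap was 484 bp (468 to 496), against 435 bp (433 to 438). Their median even percentile was 98.1 and their median odd percentile 65.5, against 90.01 and 41.8. None of the 268 was low in both lists, where 8.76% of the members were.

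Most pairs lacked a pulldown peak even in the highest of 4 bins of either score. Of all 2791 pairs, 268 (9.6%) met one. In 4 equal bins of even score the share was 1.15% (0.496% to 2.25%), 3.44%, 7.46% and 26.4% (23.1% to 29.8%), so that 514 of the 698 pairs in the highest bin were members. In 4 bins of odd score it was 3.44%, 6.16%, 10.3% and 18.5%. Within the highest even bin the share was 18.4% of 38, 37.1% of 70, 24.4% of 180 and 26.1% of 410 pairs from the lowest to the highest odd bin, with no steady rise. Of the 410 pairs in the highest bin of both scores, 303 were absent from the pulldown list. The very top of the odd list differed. Of its 500 highest peaks, 7 were partners of members and 9 met both an even and a pulldown peak.

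At matched even rank the gap in odd score narrowed. In the top 10% of even scores, the 1272 member pairs had a median odd percentile of 54.9 (interquartile range 34.2 to 72.4) and the 243 pairs with a pulldown peak 65.7 (45.0 to 83.7), ranges that overlap over most of their length. In the same order, the even widths were 552 and 560 bp, the odd widths 469.5 and 490 bp, and the midpoint distances 15.5 and 16 bp. The odd peak was nested in the even peak in 78.5% of these member pairs and in 72.4% of the pairs with a pulldown peak. The even scores within this bin still differed, with medians of 2849 and 3308.

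The regions followed the even list over the chromosomes. They lay on all 21 chromosomes with even peaks, from 221 on chromosome 2 to 63 on chromosome 19 among the autosomes, with 84 on chromosome X and 1 on chromosome Y. Beside the 13.9% of all even peaks, the share ran from 11.1% (8.66% to 14.0%) on chromosome 19 to 16.1% (13.5% to 19.0%) on chromosome 14, leaving out chromosome Y with 6 even peaks. The interval left out 13.9% on 1 chromosome of 21, chromosome 2 with 15.9% (14.0% to 17.9%), without adjustment for 21 looks. The median even percentile lay between 88.2 and 92.5 and the median odd percentile between 36.6 and 57.8 on the 20 chromosomes other than Y, with the highest odd value on chromosome 19. On each of the 21 chromosomes the even median was above the odd median.

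Per length of called span, the regions were densest on chromosome 15 with 1.49 per Mb and sparsest on chromosome X with 0.521 per Mb, leaving out chromosome Y, around 0.982 per Mb overall. Their share of even peaks was 14.0% on chromosome 15 and 14.4% on chromosome X, so these densities went with those of the even list. Chromosomes 15, 19 and 9 had the lowest shares of absent peaks among shared ones, with 84.7%, 85.1% and 85.4%, and chromosomes 8, 18 and 7 the highest, with 96.5%, 95.7% and 95.5%, among chromosomes other than Y. The last shares rest on 4, 4 and 6 shared peaks with a pulldown peak. Chromosome 11, from which Bloodlinc is transcribed, held 129 regions, 12.8% of its even peaks (10.8% to 15.0%). The single chromosome Y region, at 1355235 to 1355764, had percentiles of 55.3 in the even list and 48.1 in the odd list.

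Neighbouring regions were mostly far apart. The median gap was 580 kb (interquartile range 245 to 1343 kb), the shortest 114 bp, and 33 of 2501 gaps were 10 kb or less. In fixed 1 Mb windows, 781 of the 1482 windows with a region held only 1, and 25 held 5 or more. The densest, with 9 regions between 113142923 and 113911509 on chromosome 12, also held 43 even and 38 odd peaks, and 1 pulldown peak. The next held 8 and 7 regions on chromosome 9 (21127044 to 21920661 and 14289152 to 14984249), each among 38 even peaks. Among the 25 windows with 5 or more regions, the highest share of even peaks was 5 of 8, beside 13.9% of all even peaks. It was found on chromosome 13 (98043677 to 98769062) and chromosome 3 (128051627 to 128809912), with no pulldown peak in either window. Windows with fewer regions were not compared in this way.

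By median distance the regions were no nearer to the consensus than other even peaks. Their median distance to the nearest consensus interval was 3487 kb (3180 to 3793 kb), and that of even peaks without a partner was 3481 kb (3374 to 3601 kb). Within 1 Mb of a consensus interval lay 22.5% of the regions (568 of 2522) and 22.5% of the even peaks without a partner. Within 100 kb lay 55 regions, or 2.18% (1.65% to 2.83%), a lower share than the 3.14% (2.87% to 3.43%) of the even peaks without a partner. Within 10 kb lay 5 regions (0.198%), against 0.353%. Among the top 20% of even scores the shares within 100 kb were 2.21% (42 of 1898) and 2.73% (39 of 1427). Their intervals, 1.60% to 2.98% and 1.95% to 3.72%, overlapped. No region lay within 1 kb, where 5 of the 15281 others did (0.0327%).

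The 55 regions within 100 kb were spread over 49 consensus intervals, with at most 3 regions sharing a nearest interval, and 28 lay on the side of lower coordinates and 27 on the other. Their median even percentile was 90.2, against 90.01 for the regions farther away. Of the 268 consensus intervals, 218 had no such region within 100 kb.

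**Figure D5:**
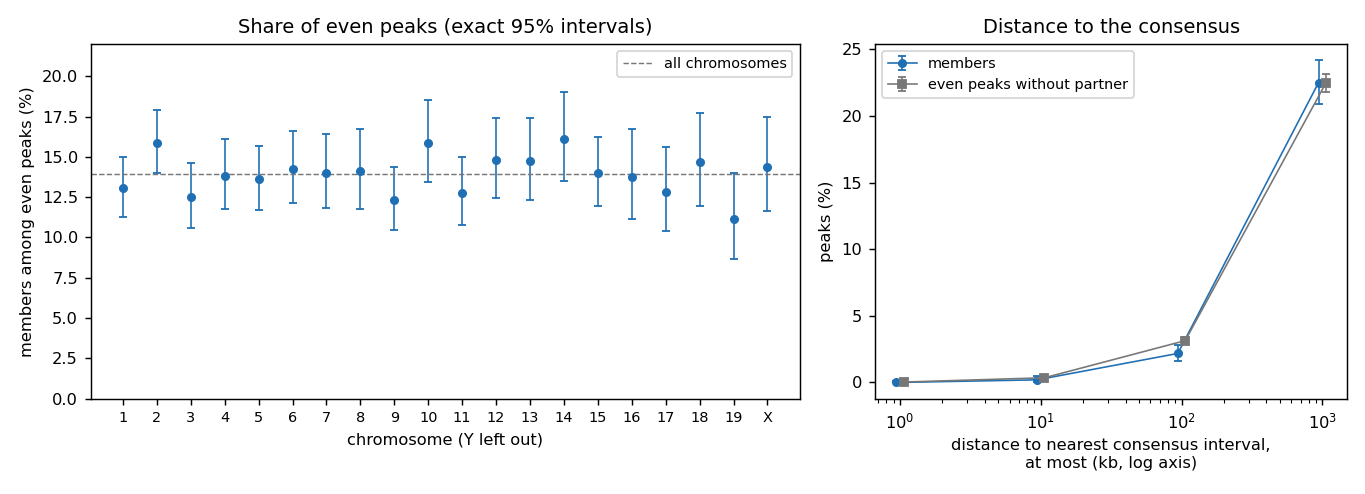
Left, the regions as a percentage of the even peaks of each chromosome with exact 95% intervals (chromosome Y left out) and the overall 13.9% as a dashed line, which only the interval of chromosome 2 leaves out. Right, the percentage of regions (circles) and of even peaks without a partner (squares) within 1, 10, 100 and 1000 kb of a consensus interval, on a log axis, with exact 95% intervals, which meet at 22.5% at 1000 kb.

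The closest approach to the consensus was on chromosome 14, where the region at 79418624 to 79419168 (even rank 842, odd rank 7873) began 1592 bp beyond the consensus interval at 79416613 to 79417031. The region on chromosome 3 at 100636012 to 100636664 lay 8350 bp from an interval and ranked 659th in the even list but 19748th in the odd list. The region on chromosome 15 at 64052114 to 64052544 lay 9524 bp from an interval and ranked 17754th in the even list.

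A pulldown peak outside the consensus came nearer still in 1 place. On chromosome 5 the region at 93553501 to 93553995 (even rank 2632, odd rank 9758) lay 816 bp from a pulldown peak of score 812 at 93552120 to 93552684, the only region within 1 kb of any pulldown peak. On chromosome 15 the regions at 102721795 to 102722353 and 99140430 to 99140922 lay 2067 and 3270 bp from pulldown peaks of scores 857 and 873. Over all 517 pulldown peaks the median distance was 1805 kb (1687 to 1960 kb) for the regions and 1806 kb (1746 to 1874 kb) for even peaks without a partner.

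Around the highest pulldown peak, on chromosome 11 at 102233495 to 102238439, 5 regions lay within 1 Mb. The nearest, 526 kb away at 102764859 to 102765241, was low in both lists, with an even score of 532 and an odd score of 723. The other 4 were 567 to 961 kb away with even scores from 2255 to 2962 and odd scores from 880 to 1366, on both sides of the set's medians of 2403 and 1027.

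None of the 3 background lists (input, no-probe, RNase) had a peak that overlapped a region or an odd partner. The nearest control peak to any region was an RNase peak of score 40, 5213 bp from the region at 31468205 to 31468739 on chromosome 13. No-probe peaks of scores 37 and 52 lay 9290 bp from a region on chromosome 18 (57808913 to 57809512) and 10743 bp from one on chromosome 2 (170479827 to 170480394). The control lists are short, and the even peaks without a partner met them almost as rarely, with 2 of 14701 within 1 kb of an input peak, 0 of 15281 of a no-probe peak and 1 of 15277 of an RNase peak. The median distance to the input was 11620 kb for the regions and 11447 kb for the even peaks without a partner. In the same order it was 10204 and 10050 kb to the no-probe list and 8649 and 8434 kb to the RNase list.

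The edges of the rule were sparsely filled. Just inside it, the shortest overlap was 1 bp on chromosome 8, between an even peak at 66683307 to 66683785 (rank 10383) and an odd peak at 66682814 to 66683307 (rank 4043). Overlaps of 2 bp on chromosome 13 (even peak 81536293 to 81536726) and 14 bp on chromosome 17 (even peak 88710027 to 88710434) followed. Just outside it, an even peak at 78737354 to 78737765 on chromosome 11 touched its odd neighbour without sharing a base, and peaks on chromosomes 12 (119194471 to 119194858) and 1 (43634385 to 43634811) missed theirs by 7 and 9 bp. In all, 38 even peaks missed an odd peak by 100 bp or less. On the side of the pulldown the division was clean, since the shortest overlap of a shared even peak with a pulldown peak was 352 bp, on chromosome 5 at 24172098 to 24172588. The other short ones were 368 bp on chromosome 15 (9083132 to 9083499) and 390 bp on chromosome 4 (131817397 to 131817901).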

How the data were processed

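Peak lists of 6 ChIRP-seq libraries and 1 consensus list were used as deposited. Bowtie2, bedtools and the mouse build mm9 are named in the submitters' processing notes. Software versions, the caller of the peaks, the cut-offs applied and the meaning of the score were not given in the sources used here. The only measurement the authors deposited is that score, a whole number per peak, so depth is unknown. Positions are in mm9, counted from 1.

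Percentiles were average ranks within a list. Overlap was 1 bp or more, and distances ran from edge to edge. Shares carry exact (Clopper-Pearson) 95% intervals and medians exact binomial order-statistic intervals, both for counting only. Regions to name were fixed by rule: the 10 highest even scores, the 5 highest odd scores, the 5 best poorer ranks, the 3 nearest to each kind of list, the edges of the rule, the median, and those within 1 Mb of the highest pulldown peak. The widest even peak, the region with 2 odd partners and the chromosome Y region were outside that rule and were added after their values were seen. Members, lists and rules were chosen with earlier results of these data known. The overlap code was tested on simulated intervals. Python 3.11.15, numpy 2.4.6, pandas 2.3.3, SciPy 1.17.1 and matplotlib 3.10.9 were used.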

Additional observations from a re-analysis of the deposited data

How the results depend on the processing

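The number of regions (2522) and the medians and share given with it were recomputed under 8 alternatives, the share also at 2 other distances. Restricting both lists to the top 50% of scores left 934 regions, with a median even percentile of 95.1, a median odd percentile of 68.5 and a median midpoint distance of 16 bp, as fewer and higher-scoring peaks enter by construction. Pairing peaks with midpoints within 1 kb in place of overlap gave a median even percentile of 89.1 and a midpoint distance of 19 bp. That rule also lets in peaks that do not overlap. The share near a consensus interval was 0.198% at 10 kb and 22.5% at 1 Mb. The other 34 of the 42 recomputed values stayed within 1.5 times the count or within the interval of the main value. They include an overlap of 50% of both peaks (2453 regions) and removal of chromosome 11 (2393). Removing regions that meet a control peak changed nothing, as there were none. No paired analysis was possible because each condition has 1 library. The unknown depth and score scale limit every comparison between lists.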
